A study of Danio rerio with 5 samples.

Results

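The regions described here are stretches of the zebrafish genome in which methylated DNA was called at 24 and 48 hours post fertilisation (hpf) but not at dome, a late blastula stage. They were chosen by the presence and absence of peaks. The 3 MethylCap-seq peak lists were joined on chromosomes 1 to 25 wherever peaks overlapped by at least 1 bp, which gave 373137 merged regions. Of these, 31728 held at least 1 peak from the 24 hpf list, at least 1 from the 48 hpf list and none from the dome list. They made up 8.5% of the merged regions and covered 12.1 Mb. The number depends on the peak limit, with 17284 regions when the higher-scoring 50% of each list was kept and 20831 when a dome peak within 1 kb also counted as presence. Since the measured calls defined the set, the absence at dome and the presence at the later stages are descriptions and not findings.

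Cytosine methylation at CpG dinucleotides is written by DNA methyltransferases and is spread over most of the vertebrate genome, while many CpG-rich promoters stay free of it. MethylCap-seq captures methylated fragments with a methyl-CpG binding protein and sequences them, so a peak marks a place where methylated CpGs are dense as well as methylated. H3K27me3 is a histone modification that Polycomb repressive complex 2 writes. It marks repressed developmental genes, and in many vertebrate cells it is found mostly at CpG-rich DNA that lacks methylation.

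The study profiled DNA methylation at dome, 24 hpf and 48 hpf and H3K27me3 at dome and 48 hpf. The material was whole embryos of mixed AB and Tübingen background, with no treatment named. Each of the 5 groups was 1 library, so there is no replicate spread and no p-value. A whole embryo mixes many cell types, so a change in the share of cells that carry a mark and a change within cells cannot be told apart.

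Intervals below are 95% Wilson intervals for shares and exact Poisson intervals for fragment counts. They cover counting error only, and the Wilson intervals treat regions as independent. The fold of a peak is the authors' peak caller's enrichment at the summit over the local background, and a percentile is the rank of that fold within its own list, from 0 for the lowest to 100. Coordinates are on danRer7, counted from 1. No gene annotation or sequence of that build was used, so regions are given by position only.

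The dome, 24 hpf and 48 hpf lists held 220564, 330176 and 192673 peaks on the numbered chromosomes. The fold and p-value of each peak together fixed the number of fragments under its summit and the expected background, and all peaks of the 3 lists gave a whole number of fragments to within 0.02. The lowest background, taken as the genome-wide one, was 2.52 fragments at dome, 2.67 at 24 hpf and 1.65 at 48 hpf. The dome background was thus 0.947 of that at 24 hpf, and the 48 hpf background 0.619 of it. At those backgrounds the weakest called peak needed 8 fragments at dome, 8 at 24 hpf and 6 at 48 hpf, which are folds of 2.55, 2.46 and 2.64. The narrowest peaks were 244, 192 and 211 bp wide. Divided by these widths, the dome background was 0.745 of that at 24 hpf, and the 48 hpf background 0.563 of it.

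Regions called after dome were mid-ranked to weak in both later lists. Their median percentile was 46.0 at 24 hpf, with quartiles of 23.2 and 68.2, and 41.1 at 48 hpf, with quartiles of 20.8 and 59.3. Regions called at all 3 stages had medians of 68.2 and 59.3. Regions called at 24 hpf alone had a median of 39.9, and those called at 48 hpf alone one of 30.7. On the fold scale the medians were 3.99 at 24 hpf and 4.09 at 48 hpf, against 4.64 and 4.53 in the 3-stage regions. The folds of the regions called after dome ran from 1.64 to 12.6 at 24 hpf and from 1.58 to 11.7 at 48 hpf.

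The counts behind these folds were small. The median summit held 17 fragments at 24 hpf, with quartiles of 14 and 20, and 11 fragments at 48 hpf, with quartiles of 10 and 14. In the 3-stage regions the medians were 19 at dome, 21 at 24 hpf and 14 at 48 hpf. A single fragment at the genome-wide background moved the fold by 0.273 at 24 hpf and by 0.377 at 48 hpf, so ranks near the middle of a list differ by a few fragments. The background under the summit was the genome-wide one in 40.5% of the regions at 24 hpf and in 47.4% at 48 hpf, against 30.6% and 34.3% of the 3-stage regions.

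The upper end of both lists held fewer of these regions than the lower end. Each list was cut by fold into deciles, with 10 the highest and tied folds kept together. The regions took 11.2% of the peaks in decile 1 of the 24 hpf list and 6.10% of those in decile 10, against 9.73% of the whole list. In the 48 hpf list they took 18.8% of decile 1, 22.6% of decile 5 and 3.98% of decile 10, against 16.6% of the whole list. In the upper 10% of the list stood 2013 regions at 24 hpf (6.34%) and 765 at 48 hpf (2.41%). Only 119 regions, or 0.375%, stood there at both stages. Among all 149776 merged regions with 24 and 48 hpf peaks the share was 5.27%, and among the 3-stage regions it was 6.59%. A percentile under 50 at both stages was found in 11735 regions (37.0%) and one over 50 at both in 7066 (22.3%). Neither share was counted in other kinds of region.

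**Figure D1:**
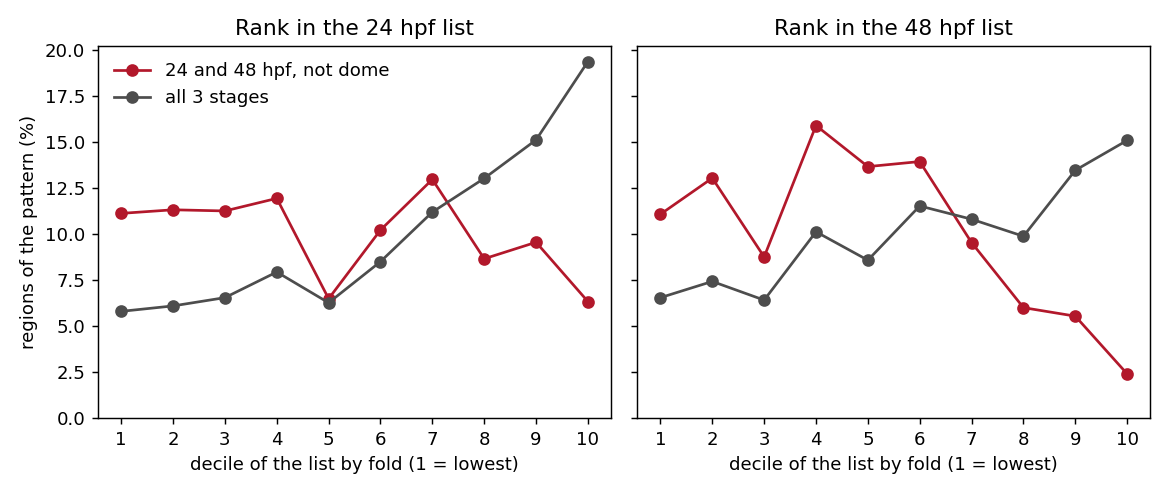
Share of regions (%) in each decile of the 24 hpf list (left) and the 48 hpf list (right) by fold, where 1 is the lowest. Tied folds are kept together, so the deciles are not of equal size. Red points are the 31728 regions called at 24 and 48 hpf but not at dome, and dark points the 118048 regions called at all 3 stages. The red line ends at 6.34% and 2.41% in decile 10, below the dark one.

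The ranks at both stages went together loosely. Spearman's rho between the percentiles was 0.367 over the 31728 regions and 0.450 over the 3-stage regions. Both are correlations across regions of the same pair of libraries and are given as descriptions. The percentile was higher at 48 hpf in 14096 regions (44.4%). It was higher by over 50 at 48 hpf in 1153 regions (3.63%) and at 24 hpf in 2489 (7.84%). The shares with such differences were not counted in the 3-stage regions.

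How far these regions rose above 1 limit of the dome list was read from the counts, a comparison chosen after the data were examined. The limit belongs to the genome-wide background, at which 33.7% of the dome peaks stood. At a higher background a lower fold can be called, and folds of the set at 24 hpf ran down to 1.64. The limit is thus not the lowest fold that the dome list could have held everywhere. The lower 95% bound of the fold was over 2.55, the lowest dome fold called at the genome-wide background, in 13259 regions at 24 hpf (41.8%) and in 8020 at 48 hpf (25.3%). Both bounds were over it in 4154 regions (13.1%). Both were over 4.12, the median dome fold, in 35 regions (0.110%). The shares over these limits were not counted in the 3-stage regions, so they are not results about the set. Outside the 4154 regions the interval reached down to 2.55, or lay below it, at 1 stage or both. The later peaks were also often narrower than 244 bp, the narrowest dome peak. At 24 hpf this held in 10657 regions (33.6%), against 11.4% of the 3-stage regions and 52.9% of the regions of 24 hpf alone. At 48 hpf it held in 12585 regions (39.7%), against 16.5% of the 3-stage regions and 53.4% of the regions of 48 hpf alone. The 3-stage shares show that a narrow later peak can go with a dome call. The part of depth and fragment length in the missing dome calls was not tested.

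In 8 regions a dome peak adjoined with no base between. The first of these, chr2:7385341-7385845, had folds of 3.27 at 24 hpf and 2.74 at 48 hpf. Just outside the rule, the region chr16:3393548-3394150 shared 1 bp with a dome peak of fold 2.84 and had folds of 2.94 at 24 hpf and 4.05 at 48 hpf. Within 20 bp of the edge lay 158 regions of the set, while 52 regions were kept out by an overlap of up to 20 bp.

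The 10 strongest regions, taken as those with the highest lower percentile of the 2 stages, lay on 8 chromosomes and had folds from 7.09 to 12.6 at 24 hpf and from 8.25 to 11.7 at 48 hpf. The strongest was chr15:12668037-12668449, a 413 bp region with 45 fragments at its summit at 24 hpf (32.8 to 60.2) and 25 at 48 hpf (16.2 to 36.9). Its folds were 12.6 and 9.81, its summits lay 22 bp apart, and the nearest dome peak was 22488 bp away. It also carried an H3K27me3 peak at dome, of fold 4.01, and one at 48 hpf, of fold 3.83. The second, chr20:33703888-33704271, had a higher fold at 48 hpf, 11.7 from 30 fragments (20.2 to 42.8), than at 24 hpf, 7.91 from 28 fragments (18.6 to 40.5). The intervals of its folds, 5.35 to 11.3 at 24 hpf and 8.02 to 16.5 at 48 hpf, overlapped.

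Next came chr8:54338254-54338711, chr10:32356335-32356668 and chr24:27442699-27443133. The region on chromosome 8 had folds of 7.82 and 9.52 and lay 241 bp from a dome peak. The one on chromosome 10 had folds of 7.64 and 9.43 and lay 6038 bp from one. The region on chromosome 24 had folds of 9.28 and 8.34, and a dome H3K27me3 peak of fold 3.34 covered it in part. The other 5 were chr7:47711374-47711870, chr11:24732206-24732603, chr24:19637125-19637527, chr7:16879181-16879635 and chr14:16774513-16775520. The last was the widest of the 10, at 1008 bp, and lay 123 bp from a dome peak. In all, 2 of the 10 held a dome H3K27me3 peak and 1 of these also held a 48 hpf one.

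**Figure D2:**
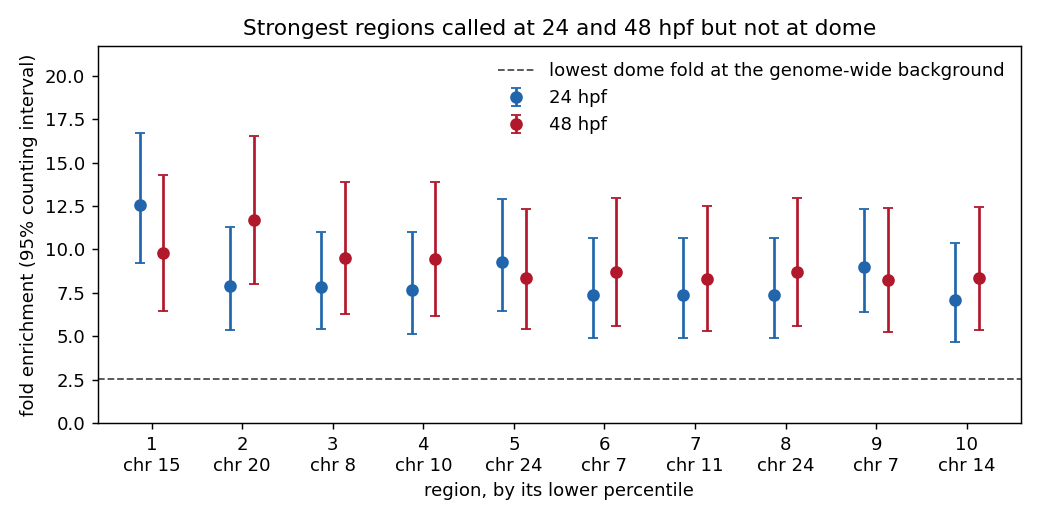
Fold enrichment at the summit at 24 hpf (blue) and 48 hpf (red) of the 10 strongest regions called at 24 and 48 hpf but not at dome, ordered by their lower percentile. Bars are folds computed from the exact 95% Poisson limits of the fragment count, and the dashed line is the lowest dome fold called at the genome-wide background, 2.55. All 20 bars lie above the line, and the bars of the 2 stages overlap in every region.

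The regions were narrow. The 24 hpf peak had a median width of 280 bp, the 48 hpf peak 262 bp and the merged region 344 bp, against 410, 364 and 587 bp in the 3-stage regions. The merged regions ran from 211 to 1648 bp, and 766 of them were wider than 750 bp. The 3 widest were chr13:13359167-13360814 at 1648 bp, chr10:28430648-28432287 at 1640 bp and chr15:41244683-41246315 at 1633 bp. The first of these had low folds, 2.66 and 2.77, from 35 and 27 fragments over high backgrounds of 12.5 and 9.09. It held 2 peaks of each stage, and the summits of the highest-fold ones lay 1013 bp apart. A single peak of each stage made up 31088 regions (98.0%). The 48 hpf peak was the wider one in 14487 regions (45.7%), and the median difference, 48 hpf less 24 hpf, was -9 bp, with quartiles of -80 and 46 bp.

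The distance between the summits of the 2 stages was bounded in advance. A region with a single peak of each stage exists because those peaks overlap, and the peaks were narrow. The closeness of the summits and the overlap of the peaks are thus descriptions. The median distance was 55 bp, with quartiles of 23 and 106 bp, and the largest was 1065 bp. The distance was 50 bp or less in 14983 regions (47.2%) and over 200 bp in 2497 (7.87%). The 48 hpf summit lay inside the 24 hpf peak in 28591 regions (90.1%). It had the higher coordinate in 15605 regions, the lower one in 15938 and the same in 185, so the shift had no common direction along the chromosome. The shorter peak was covered to a median of 95.8% by the longer one and lay wholly inside it in 12458 regions (39.3%).

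Across all widths the 3-stage regions had a larger median shift, 77 bp, but they were also wider. Within each width class the order was the opposite. The medians were 32 against 29 bp up to 250 bp, where only 56 3-stage regions fell, 39 against 34 bp at 250 to 350 bp, 75 against 50 bp at 350 to 500 bp, 137 against 89 bp at 500 to 750 bp, and 211.5 against 158 bp over 750 bp, with the regions called after dome first. The shift fell with rank: by the lower of both percentiles it was 68 bp under 25, 50 bp from 25 to 50, 44 bp from 50 to 75, 39 bp from 75 to 90 and 36 bp above 90. A fall with rank was not particular to the set. From decile 1 to decile 10 of the 24 hpf list the median went from 86 to 46 bp in the set and from 122 to 69 bp in the 3-stage regions. Over the 48 hpf list it went from 88 to 42 bp and from 124 to 68 bp. In the 3-stage regions the dome peak could also set the merged width, so a width class need not match the later peaks. At 250 to 350 bp the 24 and 48 hpf peaks had like median widths, 253 and 247 bp in the set and 252 and 245 bp in the 3-stage regions. The widths were 345 and 302 against 329 and 305 bp at 350 to 500 bp, and 492.5 and 367 against 475 and 408 bp at 500 to 750 bp. Over 750 bp the 48 hpf peak had a median width of 452.5 bp in the set and 569 bp in the 3-stage regions. The 24 hpf peak there had 670 and 687 bp. The regions called after dome also had fewer fragments under their summits at each stage. The part of the class definition and of the fragment counts in the larger shift was not tested.

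**Figure D3:**
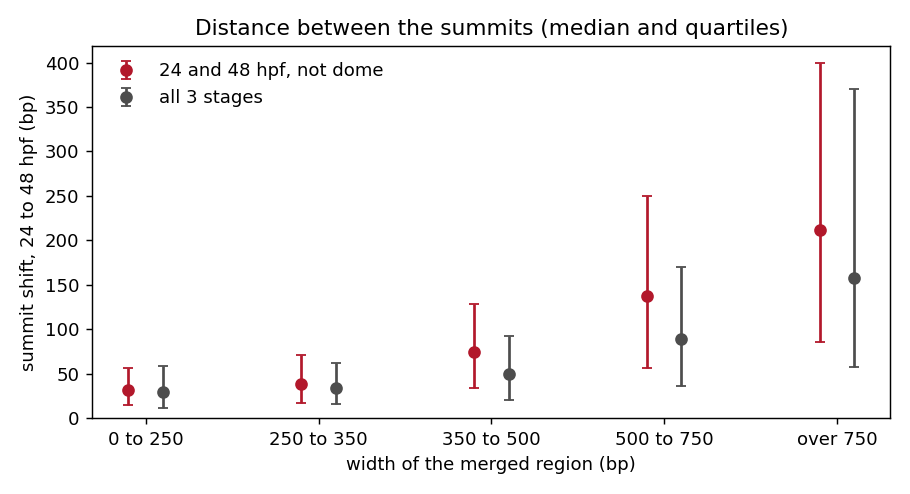
Distance in bp between the 24 hpf and 48 hpf summits by width of the merged region, as median (points) with quartiles (bars). Red is the set called at 24 and 48 hpf but not at dome and dark grey the regions called at all 3 stages. The median rises from 32 to 211.5 bp with width in the first and from 29 to 158 bp in the second.

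Most regions of the set lay over 5 kb from the next one, and most lay within 5 kb of a dome peak. The median distance to the nearest region of the set was 13840 bp, with quartiles of 5932 and 28440.5 bp, and 6737 regions (21.2%, 20.8 to 21.7) had another within 5 kb. The median distance between regions of the same kind was 4004.5 bp for the 118048 3-stage regions, 4058 bp for the 106790 regions of 24 hpf alone and 19896 bp for the 21214 regions of 48 hpf alone. These distances move with the number of regions in each kind. With the higher-scoring 50% of each list, 11.7% of the set so redefined had another within 5 kb, and with lists of equal length 14.0%. The nearest of the 220564 dome peaks was at a median of 1758 bp, a distance that likewise moves with their number. It was 1878 bp for regions of 24 hpf alone and 1620.5 bp for those of 48 hpf alone. A dome peak lay within 1 kb of 10897 regions of the set (34.3%), against 31.8% for 24 hpf alone and 36.6% for 48 hpf alone. Within 5 kb lay one for 25855 (81.5%), against 82.0% and 83.3%, and within 10 kb for 30333 (95.6%), against 95.4% and 95.5%. In closeness to dome peaks the set thus lay near both other kinds without a dome call. The region farthest from a dome peak, named after its value was seen, was chr2:40733423-40734258, at 77508 bp, with folds of 5.18 and 3.40.

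Joined within 5 kb, the regions formed 24991 singles, 2817 pairs, 303 runs of 3, 41 runs of 4 and 6 runs of 5. Of the 47 runs of 4 or 5, 15 had no dome peak between their first and last base. The 6 longest runs tied. The run at chr5:22088586-22100874 had a median fold of 4.09 at 24 hpf and 4.53 at 48 hpf, with no dome peak inside, and 1 of its regions held a dome H3K27me3 peak. The run at chr6:51905410-51916257 had medians of 4.80 and 4.55 and likewise no dome peak inside. Runs at chr7:59046479-59059877, chr9:57178877-57191802 and chr25:37957728-37972637 enclosed 2, 1 and 1 dome peaks. The run at chr25:12641019-12658158 stood apart, with folds between 2.15 and 2.32 at 24 hpf and between 1.99 and 2.36 at 48 hpf. Its median background was 11.1 fragments at 24 hpf and 11.9 at 48 hpf, several times the genome-wide one, and it enclosed 4 dome peaks.

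No chromosome stood far out. The set ran from 21.1 to 25.5 regions per Mb and from 7.76% of all merged regions on chromosome 21 to 9.33% on chromosome 1. Over 1369 windows of 1 Mb the median was 23 regions, with a range of 2 to 55. The fullest window was the first Mb of chromosome 18, with 55 of its 379 merged regions. Windows with more merged regions of any kind held more of the set, with a Pearson r of 0.647 across windows, given as a description. Within 1 Mb of a chromosome end lay 4.67% of the set and 4.81% of all merged regions.

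H3K27me3 peaks were rare at both stages in these regions and in all merged regions, and the share was lower at 48 hpf. A dome H3K27me3 peak overlapped 1081 regions (3.41%, 3.21 to 3.61), against 3.88% of all merged regions. With the higher-scoring 50% of each MethylCap list the order was reversed, at 5.24% in the set so redefined and 4.74% in all merged regions. That cut also removed dome peaks, so regions with a weaker dome peak could enter the set. The order held under the other alternatives. With lists of equal length the shares were 3.52% and 4.28%, and at an H3K27me3 overlap of 50% they were 2.62% and 3.14%. A 48 hpf peak overlapped 96 (0.303%, 0.248 to 0.369), against 0.401%. Peaks of both stages overlapped 60 regions (0.189%), against 0.25%, while 1021 had a dome peak only, 36 a 48 hpf peak only and 30611 (96.5%) neither. The dome H3K27me3 list held 31983 peaks and the 48 hpf list 6434, so the lower share at 48 hpf cannot be told apart from the shorter list. Of those peaks 1073 at dome (3.35%) and 93 at 48 hpf (1.45%) held a region of the set. The share of H3K27me3 peaks that held a merged region of any kind was not counted. The difference between these shares is therefore not a result about the set. The dome H3K27me3 peaks in the set had a median fold of 3.11 and a median width of 438 bp, against 3.14 and 439 bp in all merged regions. The median −log10 q of these peaks was 1.48, with quartiles of 1.25 and 2.08, against 1.53 in all merged regions. Many of the dome H3K27me3 peaks counted here and below were thus weak calls.

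The share with a dome H3K27me3 peak differed between kinds of region. It was 6.31% in the 3-stage regions, 5.52% with peaks at dome and 48 hpf, 2.85% at dome and 24 hpf, 3.52% at 48 hpf alone, 3.06% at dome alone and 2.01% at 24 hpf alone. A wider region has more bases to overlap, so shares are also given by width. At 250 to 350 bp the share was 2.68% (2.42 to 2.96) in the set and 3.29% (2.93 to 3.69) in the 3-stage regions. At 350 to 500 bp it was 3.55% (3.21 to 3.92) and 4.53% (4.31 to 4.75), and at 500 to 750 bp 4.81% (4.18 to 5.53) and 5.90% (5.67 to 6.13). Over 750 bp the shares were 9.92% (8.0 to 12.2) and 9.20% (8.91 to 9.51), with overlapping intervals. Regions of 48 hpf alone had a share like that of the set up to 250 bp, 2.74% against 2.75%, but higher shares when wider. These were 3.81% (3.38 to 4.29) at 250 to 350 bp, 6.25% (5.21 to 7.49) at 350 to 500 bp and 10.4% (7.31 to 14.5) at 500 to 750 bp. The regions of 24 hpf alone were not split by width. By bases, 2.09% of the set was covered by dome H3K27me3 peaks and 0.246% by those of 48 hpf, while all merged regions had 2.47% and 0.317%. A dome H3K27me3 peak lay within 5 kb of 21.2% of the set and of 22.0% of all merged regions.

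The highest H3K27me3 folds in the set lay outside its 10 strongest MethylCap regions. Among the 60 regions marked at both stages, chr5:64236774-64237236 had the highest H3K27me3 folds, 14.4 at dome and 11.3 at 48 hpf. Its MethylCap fold was 5.46 at 24 hpf and 3.77 at 48 hpf. The region chr13:53781227-53781583 followed, with H3K27me3 folds of 9.26 and 5.40 and MethylCap folds of 3.69 and 4.53, and then chr4:37518970-37519228, with H3K27me3 folds of 6.92 and 4.10 and MethylCap folds of 3.82 and 3.17. Of regions marked at 1 stage the highest were all at dome. They were chr15:18954781-18955361 at 5.75, chr13:51935385-51935624 at 5.74 and chr7:36171109-36171371 at 5.48. The last stood at the 29.3 MethylCap percentile at 24 hpf and at the 93.9 at 48 hpf, on 12 and 17 fragments. The intervals of its MethylCap folds, 1.96 to 5.99 and 4.11 to 10.6, overlapped.

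The share with a dome H3K27me3 peak varied more with MethylCap rank at 48 hpf than with rank at 24 hpf, a split chosen after the data were examined. In deciles 1 to 7 of the 48 hpf list the share lay between 2.49% and 3.49%. It was 4.35% in decile 8, 5.79% in decile 9 and 10.1% (77 of 765, 8.13 to 12.4) in decile 10. Over the deciles of the 24 hpf list it lay between 2.84% and 3.87%, with 3.78% in decile 10. Regions in the upper 10% at 24 hpf alone had a share of 3.43% (2.70 to 4.35), those in the upper 10% at 48 hpf alone 10.2% (8.11 to 12.8), and those in neither 3.23% (3.03 to 3.44). The 119 in the upper 10% at both had 9.24% (5.24 to 15.8). In regions whose percentile was over 50 higher at 48 than at 24 hpf the share was 7.29% (5.92 to 8.93). The top of the 48 hpf list also had high shares outside the set, where 9.48% of the 3-stage regions in decile 10 and 6.35% of the regions of 48 hpf alone there carried the peak. The contrast between the stages was weaker in the 3-stage regions, whose share was also high, 8.72% (8.36 to 9.09), in decile 10 of the 24 hpf list.

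**Figure D4:**
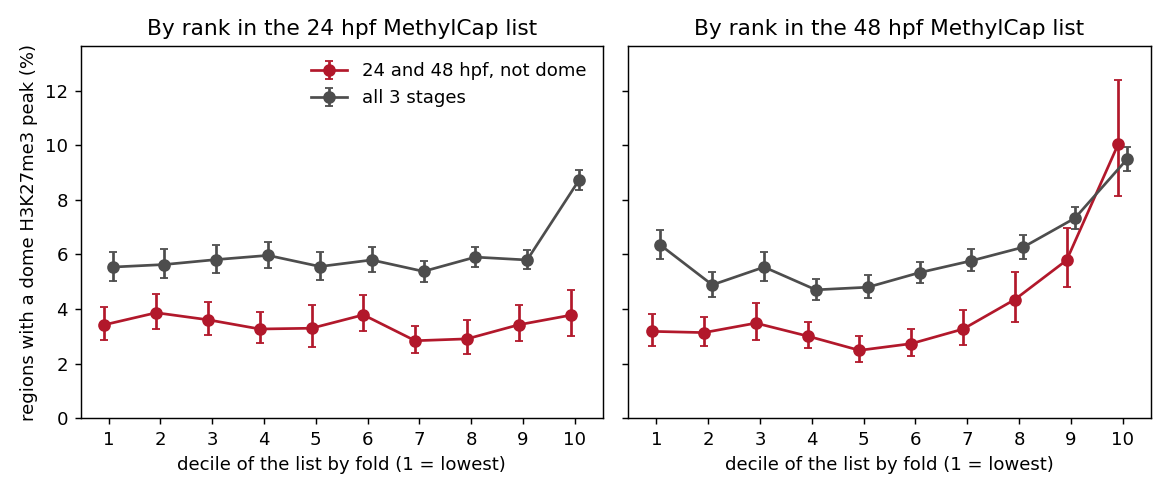
Share of regions (%) with a dome H3K27me3 peak in each decile of the 24 hpf (left) and 48 hpf (right) MethylCap list by fold, with 95% Wilson intervals. Red is the set called at 24 and 48 hpf but not at dome, and dark grey the regions called at all 3 stages. The red share stays between 2.84% and 3.87% on the left and reaches 10.1% on the right.

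Among the wide regions of the set, those high in the 48 hpf list held dome H3K27me3 more often. The width limit of 750 bp was chosen after the data were examined. Of the 57 regions of the set that were wider than 750 bp and in the upper 10% at 48 hpf, 26 (45.6%, 33.4 to 58.4) held a dome H3K27me3 peak. Of the 709 regions as wide but lower in the list, 50 did (7.05%, 5.39 to 9.18). Among 3-stage regions that were wide and in the upper 10%, the share was 11.7% (895 of 7679, 11.0 to 12.4). Regions of 48 hpf alone, which also lack a dome call, had high shares when wide whatever their rank. Over 750 bp, 9 of 32 of them held the peak (28.1%, 15.6 to 45.4), with 2 of 7 in the upper 10% and 7 of 25 at other ranks. Their interval overlaps that of the 57 regions, so the high share is not shown to be particular to the set. With the 3 MethylCap lists shortened to equal numbers of peaks, the share in the set so redefined was 30.4%. Regions with a weaker dome peak could enter that set, and the share at its lower ranks was not counted. A 48 hpf H3K27me3 peak was found in 6 of the 57 (10.5%, 4.91 to 21.1). It was found in 5 of the 709 (0.705%, 0.302 to 1.64) and in 1.46% (1.21 to 1.75) of the wide 3-stage regions in the upper 10%. Of the 32 wide regions of 48 hpf alone, 1 held it (3.13%, 0.554 to 15.7), an interval that overlaps that of the 57.

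The 57 regions were chosen for width and for a high rank at 48 hpf, so their lower rank at 24 hpf follows from the choice and their values are a description. The median percentile was 55.7 at 24 hpf and 93.9 at 48 hpf, and over all 765 regions in the upper 10% at 48 hpf it was 68.2 and 93.9. The strongest peak of each stage had a median width of 446 bp at 24 hpf and 803 bp at 48 hpf. The median summit held 15 fragments at 24 hpf and 18 at 48 hpf, although the 48 hpf background was the lower one. The 48 hpf peak was the wider one in 50 of the 57 and over 300 bp wider in 31. In the 43 regions with a single peak of each stage the median widths were 456 and 812 bp, the 48 hpf peak was over 300 bp wider in 27, and 18 (41.9%, 28.4 to 56.7) held a dome H3K27me3 peak. Only 4 of the 57 were in the upper 10% at 24 hpf, and 22 were below the median there. They lay on 23 chromosomes, with the 26 marked ones on 15, and the median distance to a dome MethylCap peak was 5273 bp.

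The following 4 were picked as the highest 48 hpf folds of the marked regions and the largest width differences, and in each the fold intervals of the 2 stages overlapped. The region chr8:19690090-19690932 had a fold of 3.73 (2.26 to 5.85) at 24 hpf and 8.04 (5.22 to 11.9) at 48 hpf, on 17 and 23 fragments, and held a dome H3K27me3 peak of fold 3.31. The region chr12:17828632-17829550 had 2 peaks at 24 hpf, the stronger one 240 bp wide with a fold of 4.09 (2.36 to 6.68). At 48 hpf it had a single peak of 919 bp with a fold of 7.93 (4.99 to 12.03), with a dome H3K27me3 peak of fold 3.62. In chr23:19673302-19674413 the single peak was 235 bp wide at 24 hpf and 1080 bp at 48 hpf, with folds of 3.27 (1.77 to 5.64) and 6.42 (3.83 to 10.2) and with H3K27me3 peaks of fold 3.61 at dome and 3.93 at 48 hpf. In chr12:13601356-13602265 the single peak was 200 and 910 bp wide, with folds of 3.82 (2.16 to 6.34) and 7.93 (4.99 to 12.03) and with no H3K27me3 peak at either stage. The −log10 q of the dome H3K27me3 peaks was 1.68 in chr8:19690090-19690932, 2.31 in chr12:17828632-17829550 and 2.09 in chr23:19673302-19674413.

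Shares also differed by the change in peak width. Where the 48 hpf peak was over 300 bp wider than the 24 hpf peak, 66 of 415 regions (15.9%, 12.7 to 19.7) held a dome H3K27me3 peak. Where the widths were within 100 bp, 648 of 21493 did (3.01%, 2.79 to 3.25), and where the 48 hpf peak was over 300 bp narrower, 42 of 1033 (4.07%, 3.02 to 5.45). The merged regions of these classes had median widths of 697, 310 and 677 bp, so the first and last class were of like width and the middle one was narrower. In the 3-stage regions the shares were 9.23% (8.50 to 10.01), 5.99% (5.80 to 6.19) and 7.18% (6.74 to 7.64), at median widths of 951, 486 and 883 bp.

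**Figure D5:**
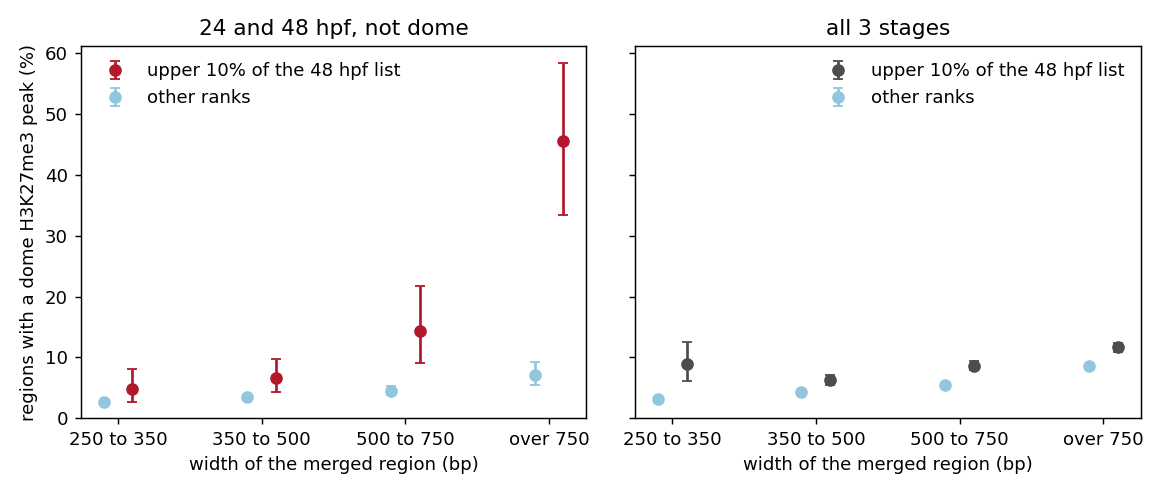
Share of regions (%) with a dome H3K27me3 peak by width of the merged region, for the set called at 24 and 48 hpf but not at dome (left) and regions called at all 3 stages (right), with 95% Wilson intervals. Darker points are regions in the upper 10% of the 48 hpf MethylCap list and light blue points all other ranks, with regions under 250 bp left out. Over 750 bp the upper 10% reaches 45.6% on the left and 11.7% on the right.

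The dome H3K27me3 share was also split by the MethylCap background at 48 hpf. Over the whole set it was 2.83% (2.58 to 3.11) at the genome-wide background and 3.92% (3.64 to 4.23) above it. In the upper 10% at 48 hpf the order was the same, with overlapping intervals. Among the 765 regions in the upper 10% at 48 hpf, the share with a dome H3K27me3 peak was 9.35% (7.08 to 12.2) where the 48 hpf background was the genome-wide one and 11.4% (8.12 to 15.7) where it was higher. The 4154 regions with both lower fold bounds over 2.55 had a dome H3K27me3 share of 4.50% (3.91 to 5.18) and a 48 hpf share of 0.337% (0.201 to 0.565), and a median distance to the nearest dome MethylCap peak of 2446.5 bp. All merged regions, without that limit, had shares of 3.88% and 0.401%. The limit was not applied to other kinds of region, so these values are not results about the set. By chromosome the dome share ran from 1.86% on chromosome 22 (20 of 1073, 1.21 to 2.86) to 5.16% on chromosome 8 (69 of 1336, 4.10 to 6.49). The share of all merged regions was not counted by whole chromosome, so this range is not a result about the set. On chromosome 4 from 30 Mb onward it was 6.18% (43 of 696), where all merged regions reached 9.64%.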

How the data were processed

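The deposited files were 1 peak list per library. The submitters' processing notes name danRer7 as the build and MACS2, SAMtools, Bowtie2 (2.2.1) and CASAVA (1.8.2) as tools. Their parameters, input control and pooling are not given in the sources used here. Each peak's score, its fold enrichment (a ratio), its −log10 p and its −log10 q are the authors' values, deposited as the caller wrote them. H3K27me3 peaks have the broad layout, with values averaged over the peak, and MethylCap peaks the narrow one, with a summit.

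Peaks on the 25 numbered chromosomes were joined at 1 bp or more of overlap with Python 3.11.15, numpy 2.4.6 and pandas 2.3.3, and intervals were computed with scipy 1.17.1. Where a region held several peaks of a stage, the peak with the highest fold stood for it. Fragment counts were solved from fold and −log10 p by the formula of MACS2, with a pseudocount of 1 and an upper Poisson tail, a step added after the data were examined. Regions were named by the highest lower percentile (10), width (3), runs of most members within 5 kb (all tied ones) and H3K27me3 fold (3 each); exceptions are marked. With 1 library per group no test was made. The scripts were checked on simulated peaks. The regions and classes were chosen with earlier results of these data known.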

Additional observations from a re-analysis of the deposited data

How the results depend on the processing

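Of 59 alternative values, 39 stayed within the interval of the main value (for the number of regions, within 1.5 times of it) and 20 did not. Keeping the higher-scoring 50% of each list gave 17284 regions, a median 48 hpf percentile of 39.8 and a summit distance of 56 bp. Another region lay within 5 kb of 11.7%, and the H3K27me3 shares were 5.24% at dome and 0.399% at 48 hpf. All merged regions then had a dome share of 4.74%, and their 48 hpf share was not counted. With no dome peak allowed within 1 kb there were 20831 regions, with median percentiles of 50.4 at 24 hpf and 45.8 at 48 hpf. Of these, 16.8% were near another and 3.21% had dome H3K27me3, against 3.88% of all merged regions. With 192673 peaks per list the 48 hpf percentile was 45.8 and the share near another 14.0%. The dome H3K27me3 share of wide regions in the upper 10% at 48 hpf was then 30.4%. Shortening the lists also removed dome peaks, so regions with a weaker dome peak could enter the set. Ranked by −log10 q, the percentiles were 44.4 and 33.3. Joining peaks at 50% overlap gave a summit distance of 52 bp. The share near another was 5.99% within 1 kb and 63.0% within 20 kb. At an overlap of 50%, 2.62% had a dome H3K27me3 peak, against 3.14% of all merged regions. The causes of these shifts were not tested, beyond the fewer peaks or looser limits that the alternatives set. No paired analysis was possible because each group was 1 library and no test was made. A dome call needed at least 8 fragments at the genome-wide background, and signal below the call limit was not measured. The part of depth in the missing dome calls was not tested.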
